A study of Mus musculus with 6 samples.

Results

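Hemgn, Tspan33, Tmod1 and Bpgm are 4 genes expressed in red cell precursors, and they were examined in tailbud tissue of mouse embryos. They were picked by name from the 56953 features of a deposited count table, as erythroid genes on chromosomes 4 and 6, and all 4 have a row in it. Hemgn and Tspan33 were already known to be lower in the mutant libraries when the set was drawn up, so the fold changes below describe the genes and are not independent evidence about blood cells. The tailbud is the growing tip of the body axis, with neuromesodermal progenitors and young somitic and intermediate mesoderm, and it was dissected on embryonic day 9.5 for sequencing of polyadenylated RNA. Wild-type embryos gave 3 libraries. Another 3 came from embryos of genotype Fgfr1 FCPG/FCPG, called FCPG here, whose FGF receptor Fgfr1 has point mutations at residues that bind its signaling effectors. The labels name no strain background, litter, sex or number of embryos per library, so p-values measure the spread between these libraries, which may be technical in part.

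The first red cells of the embryo come from the yolk sac, circulate while still nucleated, and reach every vascularised tissue, so a piece of embryo carries blood with it. As such cells mature they pack haemoglobin, rebuild the cortex under the membrane, and shift sugar metabolism toward a metabolite that loosens the hold of haemoglobin on oxygen. Of the 4 genes, Tmod1 and Bpgm serve steps named here, and Hemgn and Tspan33 are expressed in the same precursors. Hemgn encodes hemogen, a nuclear protein of blood-forming cells that acts in red cell differentiation. Tspan33, also called penumbra, encodes a tetraspanin of the red cell precursor membrane. Tmod1 encodes tropomodulin, which caps the slow-growing ends of the short actin filaments of the membrane skeleton, and which heart, muscle and lens also use. Bpgm encodes bisphosphoglycerate mutase, the enzyme that makes the oxygen-releasing metabolite.

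Row names of the table fit the reads only over parts of the genome, so the position of each gene was examined before its values. On 3 stretches, of chromosomes 4, 6 and 15, 39 of 40 ubiquitously expressed genes reached 10 CPM (counts scaled to library size), against 304 of 996 elsewhere. The stretches were chosen on that measure, with the genotype left aside. Among other protein-coding genes, which were not used to choose them, 1 CPM was reached by 75.1% of the 501 inside and by 37.7% of the 20105 outside. Tmod1 and Hemgn lay on the chromosome 4 stretch, 5 genes apart. Tspan33 lay on that of chromosome 6, next to the hedgehog receptor component Smo.

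Bpgm lay toward the Cnot4 end of the chromosome 6 stretch, where the names were in doubt. With a detection minimum of 20 CPM in place of 10 CPM that stretch ended at Copg2, 15 genes before Bpgm, and Bpgm was left outside. The shares and comparisons given here for the stretches use the minimum of 10 CPM, so they include the part beyond Copg2. All 10 nearest protein-coding neighbours of Hemgn reached 1 CPM, as did 9 of 10 for Tspan33 and 9 of 10 for Tmod1, with medians of 43.1, 168.9 and 43.1 CPM. Only 6 of the 10 neighbours of Bpgm did, with a median of 7.29 CPM. Akr1b3, the widely expressed aldose reductase, stood at 0 CPM there, while Agbl3, a tubulin-modifying enzyme of cilia, stood at 129.1 CPM. Chchd3, a mitochondrial protein needed in most cells and 8 genes before Bpgm, stood at 0.58 CPM (chosen after its value was seen). Other rows beyond Copg2 did carry reads, among them Cald1 at 46.0, Wdr91 at 18.6 and Cnot4 at 70.0 CPM. With such a mix the row named Bpgm is not read as Bpgm expression, and 3 of the 4 genes remain.

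**Figure D1:**
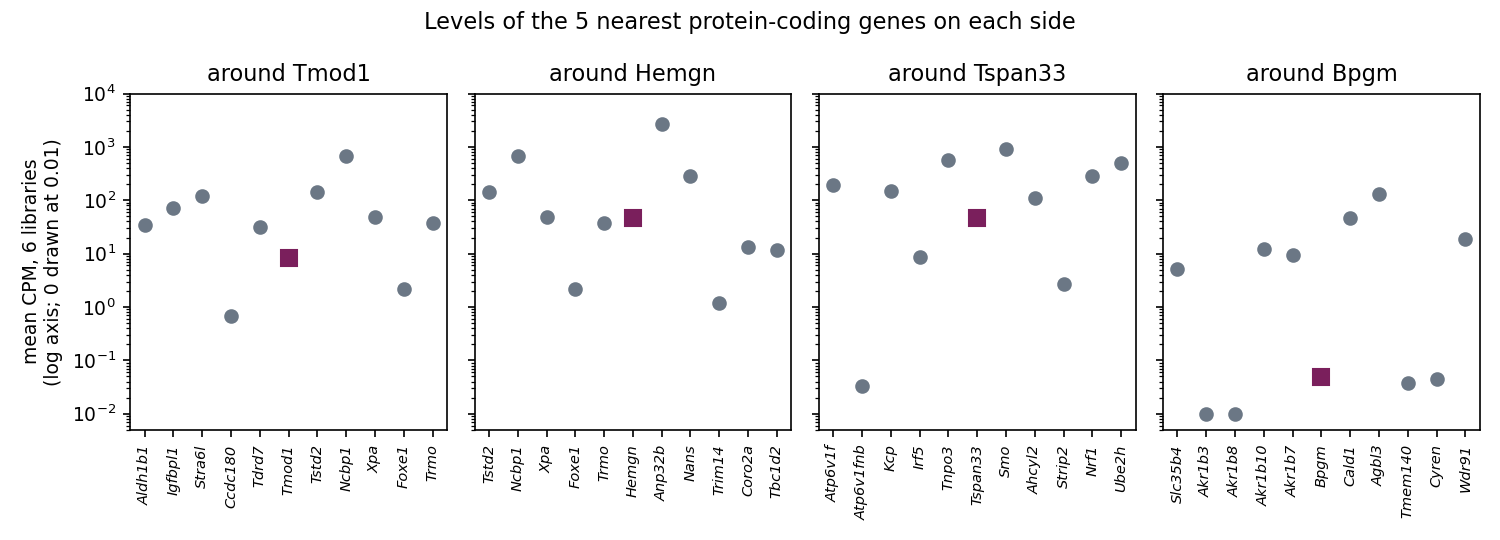
Mean CPM over the 6 libraries (log axis, a value of 0 drawn at 0.01) of each gene (square) and of its 5 nearest protein-coding genes on each side (circles), in gene order. Most neighbours of Tmod1, Hemgn and Tspan33 carry reads. Around Bpgm the rows are mixed: those named Akr1b3 and Akr1b8 stand at 0 and Bpgm itself is near 0, while others such as Cald1 and Agbl3 carry reads.

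The sequences just before the transcription starts are shown for the 3 readable genes because 2 of them were lower in FCPG together. They are the 250 bases before the start in RefSeq on GRCm38.p6, an older build than the mm39 that the submitters name, so the positions belong to the sequences and not to the counts. All 4 genes were found in that table by symbol. Capitals mark matches, on either strand, to the GATA motif (AGATAA or AGATAG, and likewise TGATAA or TGATAG) or to the CACCC-type motif CCNCNCCC, letters bound by factors of red cell genes among many others. The Hemgn window lies at chr4:46404184-46404433 on the minus strand, that of Tspan33 at chr6:29693964-29694213 on the plus strand, and that of Tmod1 at chr4:46038972-46039221 on the plus strand.
Hemgn: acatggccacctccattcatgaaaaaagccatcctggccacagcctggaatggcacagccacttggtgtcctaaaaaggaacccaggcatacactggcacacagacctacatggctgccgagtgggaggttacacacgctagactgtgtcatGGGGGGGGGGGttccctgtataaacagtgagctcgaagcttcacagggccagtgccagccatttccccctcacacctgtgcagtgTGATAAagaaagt
Tspan33: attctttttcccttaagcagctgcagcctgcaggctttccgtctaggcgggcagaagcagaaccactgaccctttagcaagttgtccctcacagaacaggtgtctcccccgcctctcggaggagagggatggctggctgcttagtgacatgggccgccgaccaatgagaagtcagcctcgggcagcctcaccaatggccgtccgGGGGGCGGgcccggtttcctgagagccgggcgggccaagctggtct
Tmod1: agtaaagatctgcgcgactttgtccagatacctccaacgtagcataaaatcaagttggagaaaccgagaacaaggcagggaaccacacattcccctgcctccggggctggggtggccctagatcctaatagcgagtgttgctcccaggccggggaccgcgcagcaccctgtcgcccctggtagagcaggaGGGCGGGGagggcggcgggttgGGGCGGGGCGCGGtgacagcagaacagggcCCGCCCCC
Hemgn held 1 GATA match, which begins 13 bases before the start, and 4 CACCC-type matches that overlap in a single run of G. Tspan33 held no GATA match and 1 CACCC-type match. Tmod1 held no GATA match and 4 CACCC-type matches, of which 2 overlap. Of 32851 windows of the same length, 26.5% held a GATA match and 45.9% a CACCC-type match. These are matches of letters in one window per gene, and nothing about binding follows from them or from their absence.

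Hemgn was lower in FCPG in every library. Wild-type replicates 1 to 3 had 103.3, 68.2 and 62.8 CPM (scaled with TMM factors). FCPG replicates 1 to 3 had 22.4, 15.9 and 10.7 CPM. The groups did not overlap. The group means were 78.1 ± 21.9 and 16.3 ± 5.9 CPM (SD, n = 3 per group), the FCPG mean being 20.9% of the wild-type mean. The log2 fold change was -2.26 ± 0.29 (SE), with a 95% interval of -2.92 to -1.60 and an adjusted p of 0.00627 (edgeR quasi-likelihood test, Benjamini-Hochberg over all 14550 features tested). These values rest on 5799 counts in wild type and 1103 in FCPG. Among the 604 tested features of the 3 stretches, only 2 had a lower log2 fold change than Hemgn. Over all 14550 features it ranked 102nd from the lowest. Hemgn was chosen with its drop known, so these ranks only describe it. In tissue RNA, fewer cells of a type and less RNA per cell cannot be told apart.

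Tspan33 was lower as well, by a smaller factor. Its wild-type libraries stood at 79.9, 63.2 and 58.02 CPM and its FCPG libraries at 27.2, 32.6 and 23.8 CPM. Again the groups did not overlap, and the libraries within each group lay closer together than for Hemgn. The means were 67.0 ± 11.4 and 27.9 ± 4.4 CPM (SD, n = 3 per group). The log2 fold change was -1.27 ± 0.16 (SE), with a 95% interval of -1.63 to -0.91 and an adjusted p of 0.006 (edgeR). In FCPG its level was 41.6% of that in wild type.

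Tmod1 did not pass the test. Wild-type replicates 1 to 3 had 16.8, 8.46 and 6.32 CPM, and FCPG replicates 1 to 3 had 3.66, 7.77 and 6.86 CPM. The groups overlapped, since FCPG replicates 2 and 3 lay above wild-type replicate 3, and wild-type replicate 1 was far above the other 5 libraries. The means were 10.5 ± 5.5 and 6.09 ± 2.16 CPM (SD, n = 3 per group), with a log2 fold change of -0.80 ± 0.40 (SE) and an adjusted p of 0.249 (edgeR). Its 95% interval, -1.70 to 0.11, takes in no difference and the value of Tspan33, but not that of Hemgn. The interval of Hemgn, -2.92 to -1.60, overlaps it at the edge, and the genes are compared by their ratios below. The end of Tmod1 overlaps that of Tstd2 on the opposite strand by 1287 bases, and Tstd2 stood at 144 CPM in the mean of all libraries. The strand setting of the counting was not given in the sources used here, so part of the Tmod1 counts could belong to Tstd2 or be left uncounted for that overlap. The 2 group means of Tstd2 were 142.6 CPM (wild-type) and 145.4 CPM (FCPG) (adjusted p = 0.872 by edgeR).

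The row named Bpgm held 3, 1 and 1 counts in wild-type replicates 1 to 3 and 0, 1 and 1 counts in FCPG replicates 1 to 3. It did not pass the filter on low counts and had no row in the authors' deposited table. No fold is given, since both groups are at the floor of 3 counts per library.

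**Figure D2:**
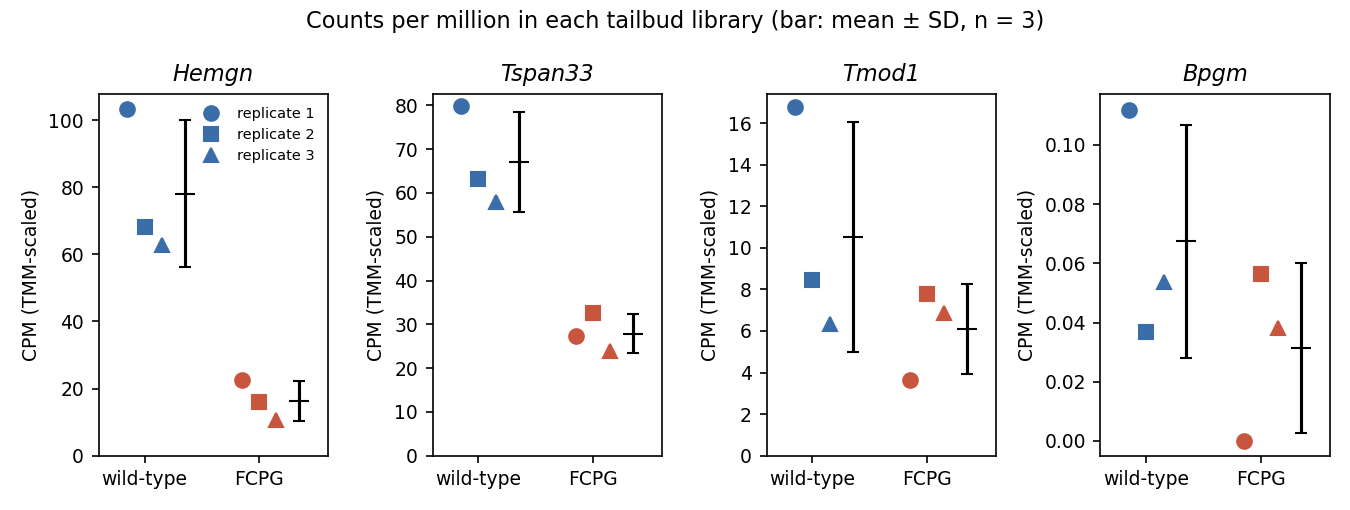
CPM of each gene in the 3 wild-type and 3 FCPG libraries, 1 symbol per replicate number, with the mean ± SD (n = 3) beside each group. The groups stand apart for Hemgn and Tspan33 and overlap for Tmod1, whose wild-type replicate 1 is at 16.8 CPM, while the row named Bpgm stays below 0.112 CPM and is not readable.

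Of the 4 genes, 3 were tested and 2 were called lower, none higher. Over all features, 3.67% were called lower and 4.25% higher in FCPG, and within the 3 stretches 4.3% were called lower and 9.27% higher. The median log2 fold change was -0.01 over all features and 0.08 within the stretches. That of the 3 tested genes, -1.27, is the value of Tspan33 itself. Since Hemgn and Tspan33 were chosen with these results known, neither the count, this median nor the overlap given next is read against the background. Groups that do not overlap, with FCPG the lower, were seen for 16.1% of all tested features and 13.7% of those of the stretches, and for 2 of the 3 tested genes. In the authors' deposited table, Hemgn had a log2 fold change of -2.25 (adjusted p = 5.18e-16), Tspan33 one of -1.26 (adjusted p = 4.51e-11) and Tmod1 one of -0.79 (adjusted p = 0.150). Of the features to which that table gives an adjusted p, 5.39% were called lower.

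**Figure D3:**
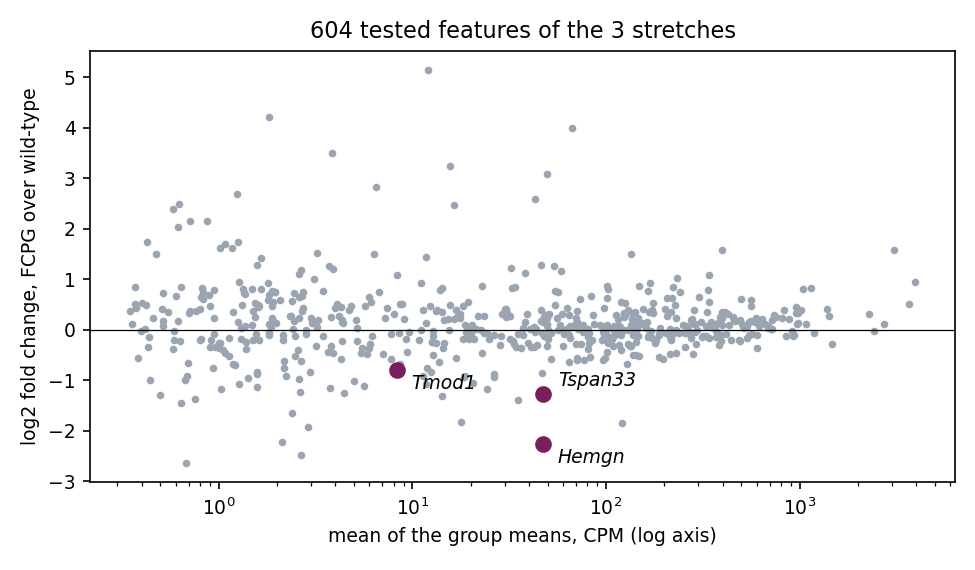
Log2 fold change (FCPG over wild-type) against the mean of the group means in CPM (log axis) for the 604 tested features of the 3 stretches, 1 point per feature, with the 3 tested erythroid genes in colour. Hemgn, at -2.26 with 2 features below it, and Tspan33, at -1.27, were chosen with their drop known, and Tmod1 is at -0.80.

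Whether the 3 genes moved by the same factor was examined with their count ratios within each library, which do not depend on library size. The log2 ratio of Hemgn to Tspan33 was 0.37, 0.11 and 0.11 in wild-type replicates 1 to 3 and -0.28, -1.04 and -1.15 in FCPG replicates 1 to 3. Every FCPG library was below every wild-type library, and the mean ratio dropped by 1.02 on the log2 scale, from 0.20 ± 0.15 to -0.82 ± 0.47 (SD, n = 3 per group). The two-sided exact permutation p was 0.1, the smallest that 3 against 3 libraries can give, and 0.15 when adjusted over the 3 pairs, so the design cannot place this difference below 0.05.

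The log2 ratio of Hemgn to Tmod1 went from 2.98 ± 0.34 in wild type to 1.43 ± 1.04 in FCPG (SD, n = 3 per group, exact permutation p = 0.1, adjusted 0.15). The groups touched in this ratio: FCPG replicate 1 stood at 2.61 and wild-type replicate 1 at 2.62, while FCPG replicates 2 and 3 stood at 1.03 and 0.64. The log2 ratio of Tspan33 to Tmod1 was 2.78 ± 0.48 and 2.25 ± 0.57 (SD, n = 3 per group, exact permutation p = 0.2, adjusted 0.2), with overlap between the groups. FCPG replicate 1, which had the most Hemgn and the least Tmod1 of its group, was the highest FCPG library in all 3 ratios.

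**Figure D4:**
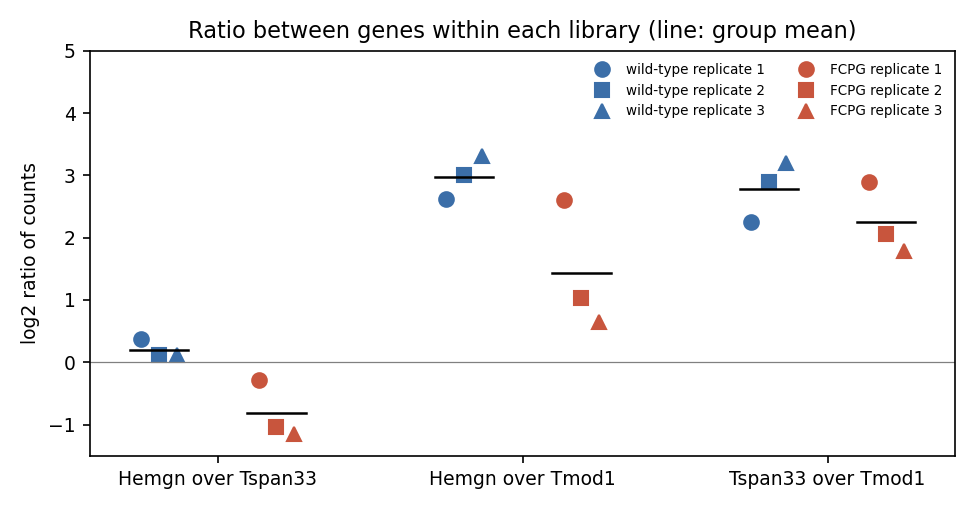
Log2 ratio of counts between 2 genes within each library, for the 3 pairs of readable genes, 1 symbol per library and a line at each group mean. The ratio of Hemgn to Tspan33 is lower in all 3 FCPG libraries (-0.28 to -1.15) than in any wild-type library (0.11 to 0.37), and the ratio of Tspan33 to Tmod1 overlaps between the groups.

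Among wild-type libraries the 3 readable genes shared an order: replicate 1 was the highest, replicate 2 the next and replicate 3 the lowest for each. In FCPG they did not, since Hemgn was highest in replicate 1 and Tspan33 and Tmod1 in replicate 2. Per kilobase of exon in GENCODE M21, Hemgn was the most abundant in wild type, at 31.1 ± 8.7 CPM per kb, followed by Tspan33 at 12.9 ± 2.2 and Tmod1 at 2.67 ± 1.40 (SD, n = 3). In FCPG the first and second no longer differed beyond their spread, with Hemgn at 6.51 ± 2.34 and Tspan33 at 5.37 ± 0.85 CPM per kb, and Tmod1 at 1.54 ± 0.55 (SD, n = 3).

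Embryo sex is not labelled and was inferred from rows named after Y-linked genes. These rows lie outside the stretches, so their names were not checked, and the number of embryos per library is not known. They held 583.6 to 942.4 CPM in sum in wild-type replicate 1 and in FCPG replicates 2 and 3. In the other libraries they held at most 0.60 CPM, so such counts were unevenly spread over the groups. Among the libraries with Y-linked counts, Tmod1 had 16.8 CPM in the wild-type one against 6.86 and 7.77 CPM in the FCPG ones. Among those without, the wild-type ones had 6.32 and 8.46 CPM and the FCPG one 3.66 CPM. Within each of these sets of libraries, FCPG was thus below wild type for Tmod1, as for Hemgn and Tspan33, with 1 library on one side each time. With a term for embryo sex as so inferred, the log2 fold change of Tmod1 was -1.11 ± 0.19 (SE) and passed the threshold (adjusted p = 0.028 by edgeR). Without any filter on low counts it passed too (adjusted p = 0.00382 by edgeR), whereas without wild-type replicate 1 it was -0.28 (adjusted p = 0.672 by edgeR). That library is also the only wild-type one with Y-linked counts, and among the 3 libraries without such counts, which leave it out, the log2 ratio of the mean levels of Tmod1 was -1.015 (FCPG over wild-type, 1 library against 2, with no test). The FCPG library there, replicate 1, was the lowest of all 6 for Tmod1. What lies behind these differences was not tested.

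**Figure D5:**
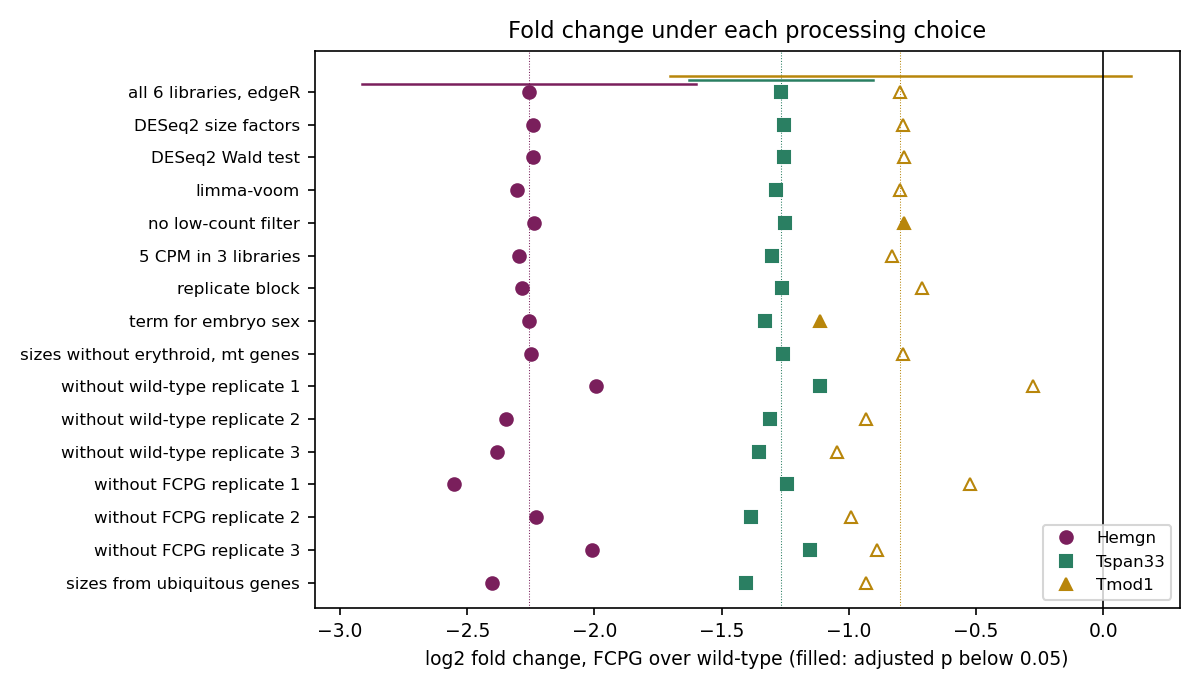
Log2 fold change (FCPG over wild-type) of the 3 readable genes under each processing choice, 1 row per choice, filled where the adjusted p is below 0.05, with the 95% interval as a line above the top row. Hemgn (-2.55 to -1.99) and Tspan33 (-1.41 to -1.11) are filled in every row, and Tmod1 (-1.11 to -0.28) is filled in 2 rows only.

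The other red cell genes could hardly be read. Lists of globins, heme synthesis and iron supply, erythroid transcription factors, membrane and skeleton, red cell enzymes, and maturation signals held 98 genes, of which 5 lay on the stretches: the 4 genes above and Ube2h. None of the 11 globin genes and chaperone and none of the 17 genes of heme synthesis and iron supply did. The rows named Hbb-y and Hbb-bh1, globins that dominate embryonic red cells, and Alas2, the first enzyme of red cell heme synthesis, were listed at 0 CPM, while the row named Hba-x, an embryonic alpha-type globin, held 46.05 CPM. Of the 91 listed red cell genes outside the stretches 46 were below 1 CPM, and since names there do not hold, neither the rows at 0 nor the others give a check. Ube2h, a ubiquitin-conjugating enzyme that red cell precursors induce but that all cells express, had 473.1, 435.6 and 457.2 CPM in the wild-type libraries against 489.8, 546 and 532.6 CPM in the FCPG libraries. It did not pass: its log2 fold change was 0.20 ± 0.08 (SE) with an adjusted p of 0.141 (edgeR).

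Genes of other cell types linked to blood or vessels were as sparse. The list of 18 macrophage and platelet genes had none on the stretches. Of 19 endothelial genes only Cav1, the main caveolar protein, was there, and it rose, from 10.4 ± 3.3 to 88.3 ± 86.3 CPM (SD, n = 3 per group, adjusted p = 0.0371 by edgeR), with FCPG libraries at 60.03, 185.2 and 19.8 CPM. That call was lost without FCPG replicate 1 or any 1 of the wild-type libraries (adjusted p = 0.0668 to 0.159 by edgeR), and with limma-voom (adjusted p = 0.111). Without FCPG replicate 2, which held the most Cav1, the log2 fold change was 1.95 in place of 3.08. Of 8 genes known from leukocytes, a list added after the stretches were known, 6 lay on the stretches and 5 were tested, with 2 called higher and none lower. Over all features 4.25% were called higher and 3.67% lower, and within the stretches 9.27% and 4.3%. Lists this small, added in this way, are not read against those shares. Bach2, a repressor of lymphocyte differentiation, rose from 71.4 ± 8.0 to 131 ± 39.1 CPM (adjusted p = 0.0387 by edgeR) and Ripk2, a kinase of innate immune receptors, rose from 45.01 ± 2.42 to 63.7 ± 5.2 CPM (adjusted p = 0.0234 by edgeR). The call of Bach2 was lost without any 1 library other than FCPG replicate 3 (adjusted p = 0.0567 to 0.137 by edgeR) and with limma-voom (adjusted p = 0.0502), and that of Ripk2 without any 1 of the wild-type libraries (adjusted p = 0.0666 to 0.105). With the term for embryo sex neither passed, nor did Cav1 (adjusted p = 0.0876, 0.0643 and 0.0814 by edgeR). Irf5, 2 genes from Tspan33, stood at 8.63 ± 2.06 and 8.36 ± 3.23 CPM. Cd72 and Pax5, genes known from B cells, had lower means in FCPG and did not pass. Cd72, a surface receptor, stood at 1.85 ± 0.086 and 0.965 ± 0.288 CPM (SD, n = 3 per group, adjusted p = 0.0945 by edgeR), with groups that did not overlap. Pax5, a transcription factor that the embryonic midbrain also uses, stood at 3.76 ± 2.16 and 2.15 ± 0.95 CPM (SD, n = 3 per group, adjusted p = 0.322 by edgeR), with overlap. Of 4 genes listed with vessels and platelets, added in the same way, Cav1 and Flnc were called higher, and Flnc, a filamin that muscle also uses, had means of 171.1 ± 14.8 and 264.4 ± 46.1 CPM (SD, n = 3 per group, adjusted p = 0.0306 by edgeR, lost without FCPG replicate 2 at 0.0556 and without wild-type replicate 2 or 3 at 0.137 and 0.113). Gng11, a G protein subunit of endothelium and platelets, stood at 68.4 ± 7.9 and 61.5 ± 26.9 CPM, and Cav2 at 7.05 ± 0.83 and 10.1 ± 4.7 CPM, neither past the threshold. Whether any of these cells were in the tissue was not tested, and neither was their part in the values of Hemgn and Tspan33.

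Close neighbours on the chromosome gave the local comparison. Trmo and Anp32b flank Hemgn. The wild-type and FCPG means were 36.6 and 37.6 CPM for Trmo and 2607 and 2816 CPM for Anp32b, a histone chaperone, with log2 fold changes of 0.04 and 0.11, neither past the threshold. Tnpo3, a nuclear import receptor, and Smo flank Tspan33, with log2 fold changes of 0.18 and -0.09 that did not pass either. Over all features 3.67% were called lower, and within the stretches 4.3%. Of the 10 tested neighbours of Hemgn, 1 was called lower, the sialic acid synthase Nans at -0.47 (adjusted p = 0.037 by edgeR). Of the 9 tested neighbours of Tspan33, 1 was called lower, Strip2 at -1.23 (adjusted p = 0.0348 by edgeR), with means of 3.70 (wild-type) and 1.58 CPM (FCPG). Tdrd7 and Tstd2 flank Tmod1, with log2 fold changes of -0.18 and 0.03 that did not pass. The median log2 fold change of the tested neighbours was -0.39 for Tmod1, against -0.12 for Hemgn and -0.06 for Tspan33. The sets of Tmod1 and Hemgn share the 5 genes that lie between them. The 5 neighbours before Tmod1 all had lower means in FCPG, with log2 fold changes from -1.84 for Stra6l to -0.18 for Tdrd7. Of the 5 after it, only Foxe1 had a lower mean. Stra6l went from 189.7 to 52.9 CPM and did not pass (adjusted p = 0.148 by edgeR). Tmod1 has Aldh1b1, a mitochondrial aldehyde dehydrogenase, as its only called neighbour, at -1.40 (adjusted p = 0.0482 by edgeR). These 3 calls of neighbours were each lost without wild-type replicate 2 (adjusted p = 0.13, 0.133 and 0.147 for Nans, Strip2 and Aldh1b1), without wild-type replicate 3 (0.137, 0.126 and 0.107) and with the term for embryo sex (0.0822, 0.0881 and 0.0853), by edgeR. Leaving out FCPG replicate 1 ended those of Nans (0.0713) and Strip2 (0.0933), FCPG replicate 2 those of Nans (0.057) and Aldh1b1 (0.104), FCPG replicate 3 that of Strip2 (0.0657), and wild-type replicate 1 those of Nans (0.0579) and Aldh1b1 (0.123).

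Likeness was measured as the root mean square distance between log2 CPM values, each centred on its mean over the 6 libraries, with 357 other genes of the stretches. The values were not scaled, so genes that change by unlike factors lie apart even where they vary together. A rank thus does not tell whether genes vary together. Hemgn was nearest to Aldh1b1 (distance 0.41), then to Tspan33 (0.56), then to Dync1i1, a dynein chain (0.61). Aldh1b1 shared the order of Hemgn within both groups, with 63.05, 47.3 and 42.1 CPM in the wild-type libraries and 29.7, 18.5 and 9.79 CPM in the FCPG libraries. Tspan33 was nearest to Ptpn3, a protein tyrosine phosphatase (0.25), then to Pon3, a paraoxonase (0.33), then to Grin3a, a glutamate receptor subunit (0.38). Ptpn3 had 30.4, 32.2 and 38.6 CPM in the wild-type libraries and 15.1, 15.5 and 14.2 CPM in the FCPG libraries, so it matched Tspan33 between the groups but not in the order of the wild-type libraries. From Tspan33, Hemgn was only the 52nd nearest gene and Tmod1 the 17th. Tmod1 was nearest to Igfbpl1 (0.39), Tmem245 (0.40) and Glipr2 (0.44), of which none passed the test. Tspan33 was the 6th nearest gene to Tmod1 (0.47) and Hemgn the 336th (0.96), while from Hemgn Tmod1 was the 26th. Over these 6 libraries, none of the 3 erythroid genes was the nearest of another.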

How the data were processed

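RNA of 3 wild-type and 3 FCPG tailbud libraries was sequenced from stranded libraries, per the labels' protocols. Bowtie, featureCounts, DESeq and DESeq2, with build mm39, stand in the submitters' processing notes. Tool versions, annotation and strand setting are not given in the sources used here. Raw counts were deposited, whole numbers per Ensembl ID, with totals of 16984568 to 27316475 per library. The authors also deposited a DESeq2 table with, per the file headers, a mean normalized signal, log2 fold changes, a Wald score and p-values. IDs were cut to 18 characters, and 52029 of 56953 matched a symbol.

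Column names gave the genotype letter and replicate number that matched them to samples. Their names carry 10-5, which is not explained, and the labelled day 9.5 is used. Stretches were found from 1036 ubiquitous genes ordered by GENCODE M21, with a hidden Markov model (chance of detection at 10 CPM 0.95 inside and 0.25 outside, chance of change 0.03, runs of at least 6 genes, posterior above 0.95). Libraries were compared with the quasi-likelihood test of edgeR 4.0.16 in R 4.3.3 (filterByExpr, TMM, no covariate), with calls at an adjusted p below 0.05. Counts simulated for this comparison over 14165 features gave back 81 of 100 with a planted 2-fold change and 100 of 100 with a 4-fold one, all of at least 5 CPM. Each simulated feature had the spread typical of its level and not its own, so these shares are not the power for the genes reported here. Ratios between genes used 0.5 counts as pseudocount and an exact permutation test. Likeness used log2 of CPM plus 1. Deviations from the group means correlated at -0.22, -0.01 and -0.01 between libraries of the same number. Alternatives were DESeq2 1.42.0 (size factors, Wald test), limma-voom 3.58.1, other filters, other library sizes, a replicate block, a term for sex and each library left out. The genes, lists and rules were chosen with earlier results of these data known. Named genes were the 4 genes, up to 5 neighbours on each side, list members of at least 1 CPM on the stretches (members of the lists added later likewise), and the 3 genes most like each. Row Fgfr1 lies outside the stretches and was not used to check the genotype.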

Additional observations from a re-analysis of the deposited data

How the results depend on the processing

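Hemgn and Tspan33 kept direction and call in all 15 alternatives, with log2 fold changes of -2.55 to -1.99 and -1.41 to -1.11 and largest adjusted p of 0.04 each (edgeR, without wild-type replicate 2). Both extremes of Hemgn, -2.55 and -1.99, and for Tspan33 -1.39 and -1.11 came from leaving out 1 library. Tmod1 kept its direction but passed with no low-count filter (-0.78, adjusted p = 0.00382) and with the term for embryo sex (-1.11, adjusted p = 0.028), and ran from -1.05 to -0.28 with 1 library left out (edgeR). The cause was not tested. Genes called lower were 2 in the fit reported, and 2 to 3 in the alternatives. With the replicate block, Hemgn was at -2.28, Tspan33 at -1.27 and Tmod1 at -0.71 (adjusted p = 0.377 by edgeR), and no call on them changed. Of the other genes named as called, Flnc (adjusted p = 0.0544) and Strip2 (adjusted p = 0.0656) lost the call with the block (edgeR). Over all tested features the replicate numbers gave no sign of pairing. With the block the SE of Hemgn went from 0.29 to 0.13, and its adjusted p from 0.00627 to 0.00075 (edgeR). The SE of Tspan33 went from 0.16 to 0.14 and that of Tmod1 from 0.40 to 0.43.

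Ratio differences ran from -1.29 to -0.86 (Hemgn to Tspan33), from -2.15 to -1.16 (Hemgn to Tmod1) and from -0.85 to -0.30 (Tspan33 to Tmod1) with 1 library left out. Ratios with Bpgm, planned among 6 pairs, were not run, and no fold of its row is given, since both groups are at the floor. With no filter that row did not pass (adjusted p = 0.757 by edgeR). Library sizes from ubiquitous genes of the stretches, chosen after seeing the data, moved the median of all features to -0.15 and put Hemgn at -2.40, Tspan33 at -1.41 and Tmod1 at -0.93. Features called numbered 1152 in all, against 2497 with no filter, 537 with the term for sex, and 129 (without wild-type replicate 2) to 1348 with 1 library left out, where 314 and 586 were called without wild-type replicate 3 and FCPG replicate 1.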
